A study of Homo sapiens with 6 samples.

Results

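The genes described here are 10 established transcriptional targets of YAP and TAZ, namely *CTGF*, *CYR61*, *ANKRD1*, *AMOTL2*, *AJUBA*, *AXL*, *CRIM1*, *DLC1*, *MYOF* and *PTPN14*. They were taken by gene symbol from the 58735 genes of the deposited tables, and each symbol matched 1 gene. The series holds RNA sequencing of an established line of pleural mesothelioma, H2452, in 3 libraries with a scrambled control sgRNA (sgCtrl, labelled wild type) and 3 with an sgRNA against *NF2* (sg*NF2*-1, labelled *NF2* knockout). Both groups carried a lentiviral vector with the sgRNA under a U6 promoter and Cas9 with an mCherry marker under an SFFV promoter, were sorted for mCherry with no cloning step described, and were cultured in RPMI-1640 medium without further treatment. The comparison asks how each of these targets, taken one by one, stood in cells edited at *NF2*. The study's methods call its replicates biological in general, and the sample labels do not say whether the 3 libraries of a group came from separate cultures, so the p-values measure the spread between these libraries. In a pool, fewer cells with a transcript and less transcript per cell cannot be told apart.

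Total counts per library ranged from 14782423 to 17416463. Counts of *NF2* itself, the targeted gene, were 1162, 1197 and 1025 in sgCtrl and 692, 802 and 590 in sg*NF2*-1, so transcripts remained after editing (log2 fold change -0.69, SE 0.10, edgeR adjusted p = 7.9e-06). Levels are given as CPM, the counts of a gene relative to its library's total over the tested genes after TMM scaling. The edgeR p-values come from its quasi-likelihood test with Benjamini-Hochberg adjustment over all tested genes. Of the 10 markers listed for mesothelial cells, *KRT8*, *KRT18* and *VIM* were abundant, at 1961, 797 and 2274 CPM in sgCtrl, whereas *CALB2*, which encodes calretinin, stood at 4.33 ± 0.402 and *KRT5* near 0 (0.0439 ± 0.0761). At an adjusted p under 0.05 in edgeR, 2 of the 9 markers tested were higher in sg*NF2*-1 (*MSLN* and *KRT18*) and 3 lower (*WT1*, *PDPN* and *KRT19*). Of all tested genes, 17.7% were called higher and 16.6% lower. Of 6 markers of other cell types, *PTPRC* had no count in any library, and *EPCAM* and *CD68* averaged under 0.3 CPM in both groups. The endothelial gene *PECAM1* went from 6.31 ± 0.830 to 1.3 ± 0.337 CPM. The epithelial gene *CLDN4* was the highest of the 6, at 12.0 ± 1.41 CPM in sgCtrl and 13.6 ± 0.912 in sg*NF2*-1 (edgeR adjusted p = 0.32). *CDH5* stood at 0.898 and 1.18 CPM (edgeR adjusted p = 0.53). The summed level of the 10 mesothelial markers was 5406 to 6051 CPM in sgCtrl and 5408 to 6147 CPM in sg*NF2*-1. That of the 6 others was 16.7 to 21.6 and 15.1 to 18.0 CPM. The first sum is mostly *KRT8*, *KRT18*, *KRT19* and *VIM*, so it does not show changes of the lower markers. Among these, *WT1* went from 10.0 to 4.86 CPM and *PDPN* from 67.9 to 28.0, while *MSLN* went from 36.4 to 57.6. The part of these marker differences in the results on the targets was not tested.

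*NF2* encodes merlin, a membrane-associated protein upstream of the Hippo kinases LATS1 and LATS2. These kinases phosphorylate the coactivators YAP and TAZ and thereby hold them in the cytoplasm, and unphosphorylated YAP and TAZ enter the nucleus and bind the TEAD family of DNA-binding proteins at promoters and enhancers. In pleural mesothelioma the pathway is often inactivated, by loss of *NF2* or *LATS2* among others, and the targets described here are widely used as its readout. They include secreted matrix-associated proteins, proteins that restrain YAP in turn, surface receptors and regulators of the cytoskeleton.

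At an adjusted p under 0.05, 7 of the 10 targets rose in sg*NF2*-1, 0 fell and 3 did not pass. Across all 14179 tested genes, 17.7% were called higher and 16.6% lower, 34.3% in either direction. The 7 that rose were *ANKRD1*, *AXL*, *AJUBA*, *DLC1*, *CTGF*, *PTPN14* and *AMOTL2*, in that order of log2 fold change from 1.12 to 0.32, and *CYR61*, *CRIM1* and *MYOF* did not pass, at 0.18, -0.01 and -0.20. The median log2 fold change of the 10 was 0.54, against -0.00 for all tested genes. The 10 were chosen with earlier results of these data known, so these shares and medians describe them and do not test them as a list. With the thresholds of the study's methods, p under 0.05 and a fold change beyond 0.5 in log2, 5 of the 10 were higher (*ANKRD1*, *AXL*, *AJUBA*, *DLC1* and *CTGF*) and 0 lower, where 9.22% and 10.8% of all tested genes were. An unadjusted p under 0.05 with a lower level was found for 1 target, *MYOF*, in edgeR. DESeq2 called the same 1 target lower at an adjusted p under 0.05. Every sg*NF2*-1 library stood above every sgCtrl library for 7 targets and below for 1, where 23.2% and 22.2% of all tested genes, 45.3% in all, were so separated. For each of these 8 targets a two-sided exact permutation test gave p = 0.10, the smallest that 3 libraries against 3 allow.

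**Figure D1:**
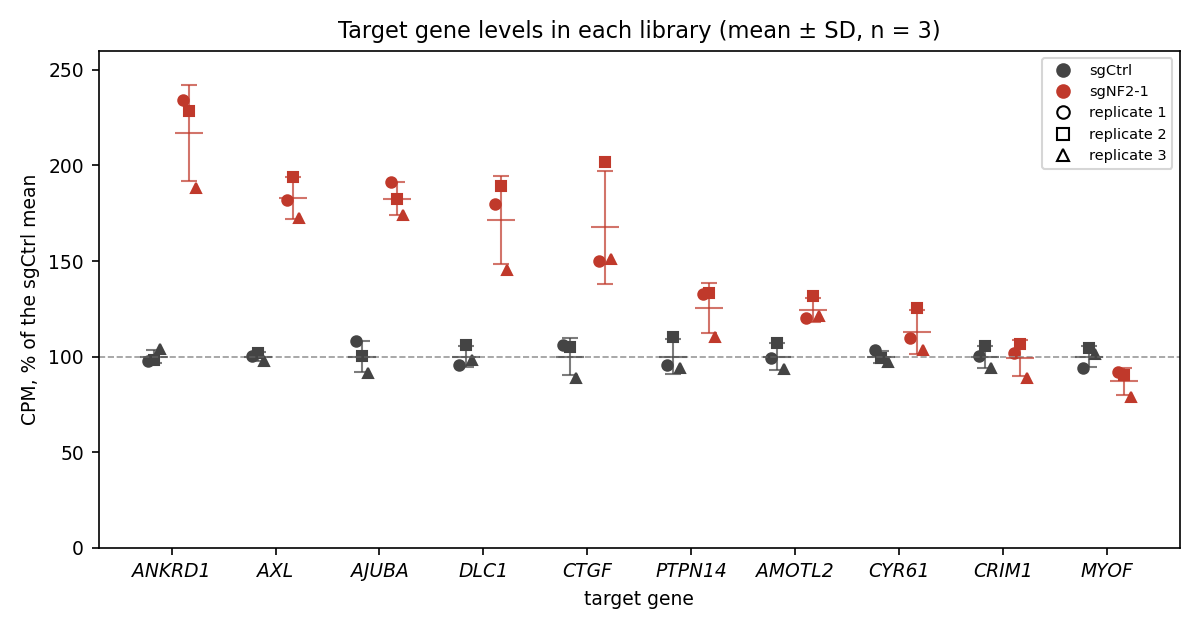
Level of each target gene in each of the 6 libraries, as CPM in percent of the gene's sgCtrl mean. Symbols mark the replicate, the horizontal bar the group mean and the whiskers the SD (n = 3). *ANKRD1* reaches 188% to 234% in sg*NF2*-1, while the *CRIM1* libraries of both groups lie around 100% and those of *MYOF* in sg*NF2*-1 lie between 79.0% and 91.8%.

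The promoters of 7 targets were found in the RefSeq promoter table (GRCh38.p14), which gives 250 bases before and 50 after each start. They were read for GGAATG, the core sequence that TEAD proteins bind, and for TGANTCA, each on both strands. TGANTCA is a loose form of the AP-1 site that takes any base at its centre. Promoters of *CYR61*, *CRIM1* and *DLC1* were not found in that table. The 4 windows below show the range from 3 core matches to none, as the 250 bases before the start, 5′ to 3′ on the gene's strand. Capitals mark GGAATG or its reverse complement CATTCC. The windows are chr6:131951373-131951622 for *CTGF*, chr10:90921088-90921337 for *ANKRD1*, chr3:134374448-134374697 for the second listed start of *AMOTL2*, which lies inside the annotated gene, and chr10:93482335-93482584 for *MYOF*, all on the minus strand.
CTGF: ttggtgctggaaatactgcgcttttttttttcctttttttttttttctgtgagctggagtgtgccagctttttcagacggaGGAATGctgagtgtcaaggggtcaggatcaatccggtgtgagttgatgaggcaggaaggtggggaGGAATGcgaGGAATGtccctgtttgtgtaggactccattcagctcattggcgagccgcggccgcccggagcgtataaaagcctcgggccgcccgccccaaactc
ANKRD1: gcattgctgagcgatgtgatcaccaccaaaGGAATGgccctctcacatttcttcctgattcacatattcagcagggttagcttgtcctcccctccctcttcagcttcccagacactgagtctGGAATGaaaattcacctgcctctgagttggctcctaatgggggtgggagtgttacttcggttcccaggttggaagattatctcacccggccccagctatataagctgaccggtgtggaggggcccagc
AMOTL2: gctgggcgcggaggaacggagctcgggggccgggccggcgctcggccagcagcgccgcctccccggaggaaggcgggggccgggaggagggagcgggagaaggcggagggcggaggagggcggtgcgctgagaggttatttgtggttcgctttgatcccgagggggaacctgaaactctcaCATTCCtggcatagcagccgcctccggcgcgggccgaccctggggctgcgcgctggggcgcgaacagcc
MYOF: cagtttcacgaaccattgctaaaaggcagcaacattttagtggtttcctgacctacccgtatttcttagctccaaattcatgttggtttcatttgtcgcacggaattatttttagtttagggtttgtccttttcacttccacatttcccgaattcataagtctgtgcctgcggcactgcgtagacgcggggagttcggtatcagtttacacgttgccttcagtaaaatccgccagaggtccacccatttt
In *CTGF* the 3 matches begin at positions -169, -104 and -95 from the start, so that the latter pair is separated by only 3 bases. In *ANKRD1* the 2 matches begin at -220 and -128. Between them lies 1 match to TGANTCA, from -195 to -189, which does not overlap either. It reads tgattca, with T at the centre. In *AMOTL2* the match lies on the opposite strand from -69 to -64.

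A GGAATG match was present in 6 of the 10 windows, in 1 window each of *CTGF*, *ANKRD1*, *AMOTL2*, *AJUBA*, *AXL* and *PTPN14*. Of all 35116 RefSeq promoters of the same length, 14% hold at least 1 match, 1.37% at least 2 and 0.128% at least 3. In *AMOTL2*, *AJUBA* and *AXL* the match is at the second listed start, which lies inside the annotated gene. The window of their first listed start holds no match. TGANTCA was found in 1 of the 10 windows, that of *ANKRD1*, and in 7.71% of all promoters. The 6 targets with a match are among the 7 that rose in sg*NF2*-1, and *DLC1*, the other that rose, had no window to read. *MYOF*, the only target read without a match, did not pass. With 1 such target, whether a match goes with a rise cannot be compared and was not tested. A match describes the letters of a window and is not evidence of binding, which these libraries do not measure, and TEAD proteins bind many of their targets at distant enhancers.

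**Figure D2:**
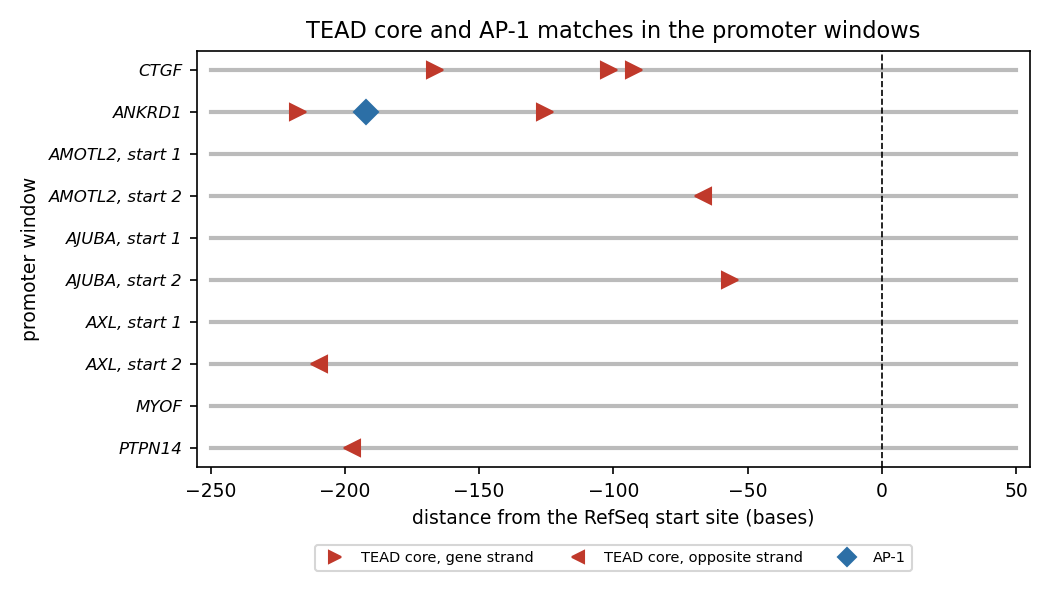
Position of TEAD core and AP-1 matches in the 10 promoter windows of 7 target genes, on an axis of bases from the RefSeq start site. Triangles point right for a TEAD core match on the gene's strand and left for the opposite strand. The diamond marks the AP-1 match of *ANKRD1*, which is a match to TGANTCA with T at the centre. *CTGF* has 3 core matches and *MYOF* has 0.

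*CTGF* and *CYR61* encode secreted CCN-family matrix proteins that bind integrins and are the most commonly measured YAP and TAZ targets. *CTGF* rose and *CYR61* did not pass. *CTGF* (ENSG00000118523, chr6:131948176-131951373, minus strand) was read 805, 832 and 648 times in sgCtrl and 1270, 1499 and 1037 times in sg*NF2*-1. On the CPM scale these are 51.1, 50.7 and 42.7 in sgCtrl and 72.2, 97.1 and 72.8 in sg*NF2*-1. The groups did not overlap, and sg*NF2*-1 replicate 2 stood well above the other two edited libraries. The mean rose from 48.2 ± 4.73 to 80.7 ± 14.2 CPM (SD, n = 3 each), a 1.67-fold change with a 95% interval from 1.43 to 1.96. On the log2 scale this is 0.74 (SE 0.11, edgeR adjusted p = 7.6e-06), and without sg*NF2*-1 replicate 2 it was 0.59.

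*CYR61* (ENSG00000142871, chr1:85580761-85583962, plus strand) is known as an immediate-early gene that serum induces within the hour. It had 417, 401 and 391.8 CPM in sgCtrl and 444, 507 and 416 CPM in sg*NF2*-1. The groups overlapped slightly, since sg*NF2*-1 replicate 3 lay 0.744 CPM below sgCtrl replicate 1, and sg*NF2*-1 replicate 2 was again the highest library. The means were 403 ± 12.9 and 456 ± 46.4 CPM (SD, n = 3 each). The log2 fold change of 0.18 (standard error 0.09) did not pass (edgeR adjusted p = 0.12), and its 95% interval ran from 1.00-fold to 1.28-fold. A two-sided exact permutation test of the CPM values gave p = 0.20. Without sg*NF2*-1 replicate 3 the log2 fold change was 0.24 and passed, at an adjusted p of 0.031 in edgeR, and without replicate 2 of that group it was 0.0955, at an adjusted p of 0.52.

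Because both genes were read in the same libraries, their ratio does not depend on how libraries are scaled. For each *CTGF* count there were 8.17, 7.92 and 9.17 *CYR61* counts in sgCtrl and 6.15, 5.22 and 5.72 in sg*NF2*-1. The groups did not overlap. The log2 ratio of *CTGF* to *CYR61* went from -3.07 ± 0.112 to -2.51 ± 0.118 (SD, n = 3 each), a difference of 0.56 that ranged from 0.50 to 0.62 on omission of each library. The two-sided exact permutation test gave p = 0.10, again the smallest this design allows, so it cannot reach 0.05.

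**Figure D3:**
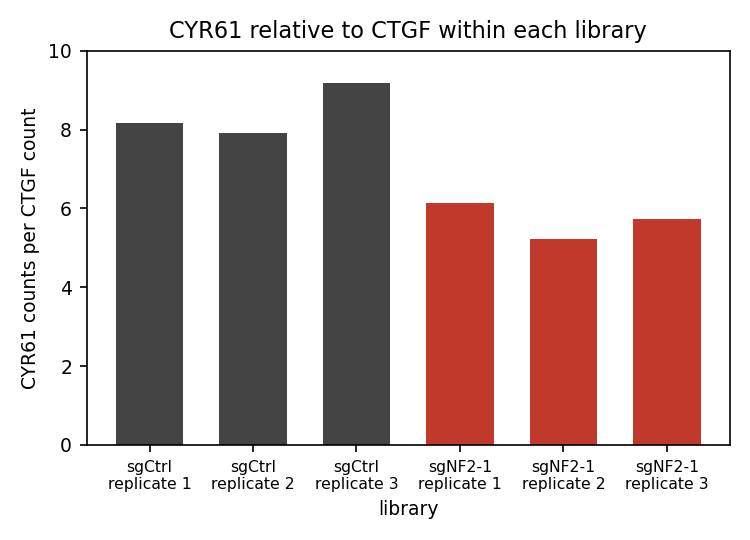
*CYR61* counts for each *CTGF* count within each of the 6 libraries, with the axis starting at 0. The sgCtrl bars stand between 7.92 and 9.17 and the sg*NF2*-1 bars between 5.22 and 6.15.

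*ANKRD1* (ENSG00000148677, chr10:90912096-90921276, minus strand) encodes an ankyrin-repeat protein found in the nucleus and, in muscle, at the sarcomere, and it had the largest change among the 10. Its sgCtrl libraries were close together at 27.8, 27.9 and 29.5 CPM, and the sg*NF2*-1 libraries stood at 66.4, 64.8 and 53.4 CPM. Even the lowest edited library was far above the sgCtrl range. The mean rose from 28.4 ± 0.931 to 61.5 ± 7.12 CPM (SD, n = 3 each), a 2.17-fold change with a 95% interval from 1.88 to 2.51 (log2 fold change 1.12, SE 0.10, edgeR adjusted p = 6.0e-09). Only 261 of the tested genes, 1.84%, had a larger log2 fold change.

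*AMOTL2*, *AJUBA* and *PTPN14* act back on the pathway or scaffold it. *AMOTL2* encodes an angiomotin that holds YAP at junctions and in the cytoplasm, *AJUBA* a LIM-domain adaptor that binds LATS kinases, and *PTPN14* a phosphatase that binds YAP through its PY motifs. All of them rose, and *AJUBA* had the largest log2 fold change among them.

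*AJUBA* (ENSG00000129474, chr14:22971174-22982642, minus strand) had 104, 96.7 and 88.2 CPM in sgCtrl and 184, 176 and 168 CPM in sg*NF2*-1. The groups were widely separated and the spread within each was narrow. From 96.3 ± 7.85 to 176 ± 8.16 CPM (SD, n = 3 each), this was a 1.83-fold rise with a 95% interval from 1.62 to 2.06 (log2 fold change 0.87, SE 0.08, edgeR adjusted p = 1.6e-08).

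*AMOTL2* (ENSG00000114019, chr3:134355874-134375479, minus strand) stood at 222, 240.2 and 209 CPM in sgCtrl and at 269, 295 and 272 CPM in sg*NF2*-1. Its groups did not overlap, although the highest sgCtrl library, replicate 2, was nearer to the edited libraries than the others were. The rise from 224 ± 15.8 to 279 ± 14.2 CPM (SD, n = 3 each) was 1.24-fold (log2 fold change 0.32, SE 0.08, edgeR adjusted p = 0.0039). In the FPKM table, the rise of *AMOTL2* also passed (difference 0.30 on the log2(FPKM + 1) scale, adjusted p = 0.036, limma), but not in 7 of 9 alternatives on that scale, where the adjusted p was between 0.053 and 0.11 in limma.

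*PTPN14* (ENSG00000152104, chr1:214348696-214552449, minus strand) had 169, 194.6 and 166 CPM in sgCtrl and 234, 236 and 194.8 CPM in sg*NF2*-1. Only 0.145 CPM separated the highest sgCtrl library, replicate 2, from the lowest edited one, replicate 3, so the groups all but met. The mean changed from 176 ± 15.9 to 221 ± 23.0 CPM (SD, n = 3 each), a 1.26-fold rise with a 95% interval from 1.10 to 1.43 (log2 fold change 0.33, SE 0.09, edgeR adjusted p = 0.0059). On the log2(FPKM + 1) scale the same 2 libraries crossed, at 9.85 and 9.73 FPKM, and the difference of 0.28 did not pass (adjusted p = 0.078, limma).

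*AXL*, *CRIM1* and *MYOF* encode membrane proteins, of which *AXL* rose and the other two did not pass the test. *AXL* (ENSG00000167601, chr19:41219203-41261766, plus strand) encodes a receptor tyrosine kinase linked to invasion and drug tolerance. Its level was 272, 275 and 263 CPM in sgCtrl and 491, 525 and 466 CPM in sg*NF2*-1. Both groups were tight and lay far apart. From 270.2 ± 6.18 to 494 ± 29.6 CPM (SD, n = 3 each) the gene rose 1.83-fold, with a 95% interval from 1.63 to 2.05 (log2 fold change 0.87, SE 0.08, edgeR adjusted p = 7.8e-09). The study picked *AXL* among its candidates on these same libraries, so its rise here is not independent of that choice.

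*CRIM1* (ENSG00000150938, chr2:36355926-36551135, plus strand) encodes a transmembrane protein with cysteine-rich repeats that binds bone morphogenetic proteins. It had 395, 415 and 370.0 CPM in sgCtrl and 402, 419.8 and 350.1 CPM in sg*NF2*-1. The libraries of the 2 groups were interleaved, and the highest and the lowest of the 6 were both edited ones. The means of 393 ± 22.4 and 391 ± 36.2 CPM (SD, n = 3 each) gave a fold change of 0.993 with a 95% interval from 0.879 to 1.12 (log2 fold change -0.01, SE 0.09, edgeR adjusted p = 0.94). The fold changes estimated for *PTPN14* and *AMOTL2*, 1.26 and 1.24, lie outside the interval for *CRIM1*. Their own 95% intervals start at 1.10 and 1.11, however, and so overlap it slightly. The *CRIM1* gene overlaps *FEZ2* on the opposite strand, which averaged 723 counts, 11.7% of those of *CRIM1*, and was called higher. In the GENCODE annotation the exons of *CRIM1* and *FEZ2* share 0 bases. Whether reads of *FEZ2* entered the counts of *CRIM1* was not tested.

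*MYOF* (ENSG00000138119, chr10:93306429-93482317, minus strand) encodes myoferlin, a ferlin-family protein of membrane repair and vesicle fusion, and was the one target whose edited libraries all lay below the controls. The sgCtrl libraries had 811, 902 and 874 CPM and the sg*NF2*-1 libraries 791, 780.2 and 681 CPM. The groups did not overlap, but sgCtrl replicate 1 was near the highest edited library. The mean went from 862 ± 46.7 to 751 ± 60.9 CPM (SD, n = 3 each). The log2 fold change was -0.20 (standard error 0.09), whose unadjusted p was 0.029 in edgeR and which did not pass (edgeR adjusted p = 0.076). The 95% interval, from 0.770-fold to 0.985-fold, lies wholly below 1. DESeq2 called *MYOF* lower, with a log2 fold change of -0.20 and an adjusted p of 0.045, as did edgeR scaled by library totals alone, at -0.22 with an adjusted p of 0.044. Without sg*NF2*-1 replicate 3 the log2 fold change was -0.13, at an adjusted p of 0.24 in edgeR.

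*DLC1* (ENSG00000164741, chr8:13083361-13604610, minus strand) encodes a GTPase-activating protein that acts on the actin cytoskeleton, and rose from the lowest level per length of the 10. Its counts were 407, 471 and 404 in sgCtrl and 855, 789 and 560 in sg*NF2*-1. As CPM, these were 25.8, 28.7 and 26.6 against 48.6, 51.1 and 39.3, with no overlap and with sg*NF2*-1 replicate 3 below the other two edited libraries. The mean rose from 27.0 ± 1.48 to 46.3 ± 6.21 CPM (SD, n = 3 each), a 1.71-fold change with a 95% interval from 1.47 to 2.00 (log2 fold change 0.78, SE 0.11, edgeR adjusted p = 4.5e-06). GENCODE lists 18 transcripts for *DLC1*, and gene-level counts do not tell which of them rose.

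Within the edited group the libraries were not alike over these genes. For 8 of the 10 targets sg*NF2*-1 replicate 3 was the lowest edited library, the exceptions being *CTGF* and *AMOTL2*, and sg*NF2*-1 replicate 2 was the highest for 7. Over all tested genes, replicate 3 was the lowest edited library for 37.8% and replicate 2 the highest for 31.5%. In sgCtrl, replicate 3 was the lowest library for 7 targets and for 36.6% of all tested genes, and replicate 2 the highest for 6 targets and 30.1% of the genes. Leaving out any 1 library left the 7 targets that rose past the threshold in edgeR, and without sg*NF2*-1 replicate 3 *CYR61* joined them.

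Levels of different genes can be compared only per length, for which the deposited FPKM values were used. The length is that of all annotated exons of a gene, so the order depends in part on the annotation. For *DLC1* it was 12794 bases over 18 transcripts and for *ANKRD1* 1979 bases over 1. Before scaling by length their sgCtrl means were close, at 27.0 and 28.4 CPM. In sgCtrl *CYR61* was the most abundant target at 155.8 ± 5.05 FPKM (SD, n = 3), followed by *MYOF* at 96.4 ± 5.27. *CRIM1* at 52.3 ± 3.06 and *AXL* at 49.7 ± 1.21 FPKM came next and their libraries overlapped. The 3 targets that did not pass the test were thus among the 4 with the highest FPKM in the control cells, together with *AXL*, which rose. Below them stood *AMOTL2* at 35.4 and *CTGF* at 19.5 FPKM. *AJUBA* at 15.3 and *ANKRD1* at 13.6 FPKM overlapped, and *PTPN14* at 8.92 and *DLC1* at 2.00 FPKM were lowest. The highest mean was 77.7 times the lowest in sgCtrl and 51.2 times in sg*NF2*-1.

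In sg*NF2*-1 the order of FPKM levels changed in the middle. *CYR61* remained first at 174.3 ± 18.2 FPKM, and *AXL* at 90.0 ± 5.62 moved up to the level of *MYOF* at 83.2 ± 6.87, with overlapping libraries (SD, n = 3 each). *CRIM1* at 51.5 and *AMOTL2* at 43.7 FPKM now overlapped. *CTGF* at 32.4, *ANKRD1* at 29.2 and *AJUBA* at 27.6 FPKM could not be ordered, since each overlapped the next. *PTPN14* at 11.1 and *DLC1* at 3.40 FPKM kept the last places. With limma on log2(FPKM + 1), 6 targets were higher and 0 lower, against 13.3% and 13.4% of 13038 genes, and the 6 were *ANKRD1*, *AXL*, *AJUBA*, *CTGF*, *DLC1* and *AMOTL2*.

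**Figure D4:**
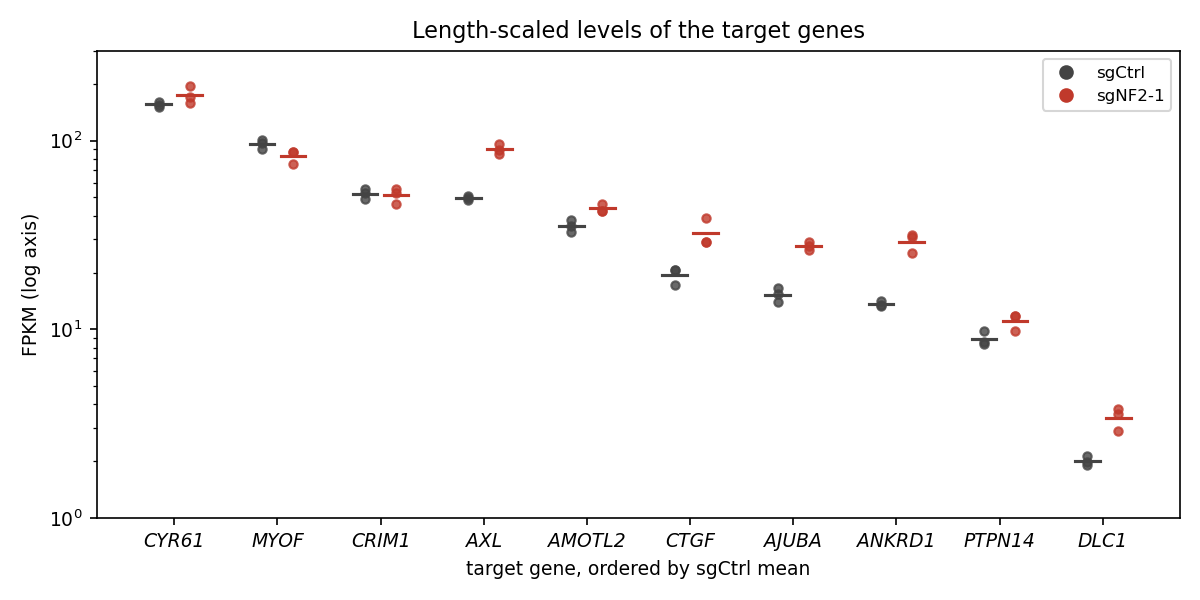
FPKM of the 10 target genes in each library on a log axis, ordered by the sgCtrl mean, with points for libraries and lines for group means (n = 3 each). *CYR61* is highest and *DLC1* lowest in both groups, and *AXL* in sg*NF2*-1 reaches the level of *MYOF*.

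A further 29 genes listed as YAP and TAZ targets were examined beside these 10. Of them, 14 come from a published pan-cancer signature, to which all of the 10 except *AJUBA* and *DLC1* also belong, and 15 from wider lists. Among the 26 that were tested, 9 rose, 8 fell and 9 did not pass, where 17.7% of all tested genes were called higher and 16.6% lower. Their median log2 fold change was -0.01, against -0.00 for all tested genes. *FOXF2*, *EDN1* and *AREG* were too low to be tested, at no more than 0.342 CPM on average. The 9 that rose were *F3*, *GADD45A*, *FJX1*, *NUAK2*, *INHBA*, *TGM2*, *DDAH1*, *FLNA* and *FGF2*. *F3*, which encodes tissue factor and which the study also picked as a candidate on these libraries, went from 149 ± 10.8 to 324 ± 25.9 CPM (SD, n = 3 each), and *GADD45A*, a stress-response gene, from 214 ± 26.9 to 359 ± 13.8 CPM. Their log2 fold changes were 1.13 and 0.74 (SE 0.09 each, edgeR adjusted p = 2.6e-10 and 3.9e-07). *INHBA* and *NUAK2* rose with log2 fold changes of 1.34 and 1.12 from only 1.35 and 1.99 CPM.

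The 8 other targets that fell were *IGFBP3*, *TNS1*, *SLIT2*, *THBS1*, *FSTL1*, *NDRG1*, *ARHGEF17* and *CCDC80*. Of these, *TNS1* and *SLIT2* fell with log2 fold changes of -1.89 and -0.73 from only 8.42 and 6.21 CPM. Both averaged under 0.5 FPKM and were not tested on that scale. *IGFBP3*, which encodes a binding protein of insulin-like growth factors, went from 115 ± 2.22 to 43.1 ± 3.41 CPM (SD, n = 3 each), that is, -1.41 on the log2 scale (SE 0.09, edgeR adjusted p = 8.2e-12). *THBS1*, which encodes the matrix protein thrombospondin 1 and is often measured together with *CTGF* and *CYR61*, went from 59.0 ± 4.77 to 36.7 ± 5.08 CPM, that is, -0.69 on the log2 scale (SE 0.11, edgeR adjusted p = 1.7e-05). *LATS2*, the Hippo kinase that YAP induces in feedback, did not pass, at 106 ± 8.31 and 124 ± 13.6 CPM with a log2 fold change of 0.22 (edgeR adjusted p = 0.060). No target list was tested as a whole here, so the counts describe the lists and no more.

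**Figure D5:**
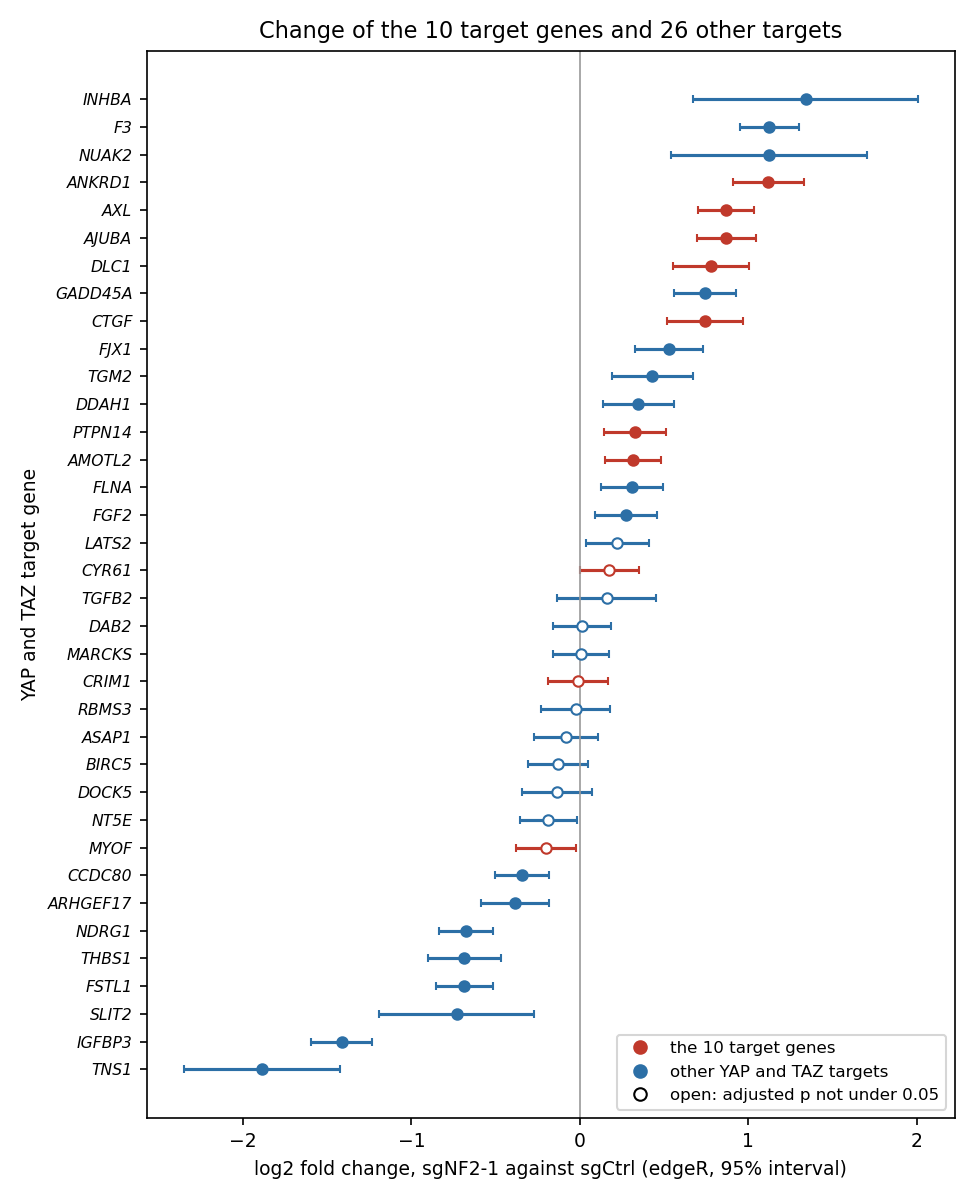
Log2 fold change in sg*NF2*-1 against sgCtrl with its 95% interval (edgeR) for the 10 target genes and 26 other YAP and TAZ targets. Filled points had an adjusted p under 0.05; the 10 span -0.20 for *MYOF* to 1.12 for *ANKRD1*, and the other targets span -1.89 for *TNS1* to 1.34 for *INHBA*.

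Of the genes for the factors that act on these targets, *YAP1* stood at 128 ± 1.56 and 123 ± 7.24 CPM and did not pass (log2 fold change -0.06, edgeR adjusted p = 0.60). *WWTR1*, which encodes TAZ, fell from 193 ± 2.68 to 108 ± 4.88 CPM (SD, n = 3 each), that is, -0.84 on the log2 scale (SE 0.08, edgeR adjusted p = 1.1e-08). Among the TEAD genes, *TEAD4* rose by 0.40 (log2) from 34.7 CPM and *TEAD2* fell by 1.05 on the log2 scale from 3.57 CPM, with adjusted p-values of 0.0032 and 0.0088 in edgeR. *TEAD1*, at 208 ± 10.8 CPM in sgCtrl, and *TEAD3* did not pass, at -0.20 and 0.22. These are transcript levels, and the phosphorylation or location of YAP and TAZ was not analysed here.

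The nearest relatives of the 10 in their protein families, 21 genes of which 14 were tested, included 5 that rose, 2 that fell and 7 that did not pass, beside the same shares of 17.7% and 16.6% over all tested genes. Their median log2 fold change was 0.17. In the CCN family, *NOV* went from 6.45 ± 1.17 to 2.53 ± 0.231 CPM (SD, n = 3 each), that is, -1.35 on the log2 scale (SE 0.22, edgeR adjusted p = 3.7e-05), while *CTGF* rose. *WISP1* had no count in any library. In the ferlin family, *DYSF*, which encodes the muscle membrane-repair protein dysferlin, rose from 129 ± 6.92 to 217 ± 5.48 CPM, that is, 0.74 on the log2 scale (SE 0.08, edgeR adjusted p = 7.6e-08), beside the -0.20 of *MYOF*.

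Among the angiomotins, *AMOT* went from 2.63 ± 0.291 to 1.04 ± 0.114 CPM (SD, n = 3 each; log2 fold change -1.34, edgeR adjusted p = 0.0024) and *AMOTL1* did not pass. Per length, *AMOT* stood at 0.293 and 0.114 FPKM and *AMOTL1* at 0.162 and 0.132 FPKM in the 2 groups, far below the 35.4 and 43.7 FPKM of *AMOTL2*. Relatives that rose with their target were *WTIP* (log2 fold change 0.46) in the family of *AJUBA*, *TYRO3* (0.33) in that of *AXL*, *STARD13* (0.36) in that of *DLC1* and *PTPN21* (0.39) in that of *PTPN14*. *LIMD1*, another relative of *AJUBA*, did not pass at -0.07. The third kinase of the *AXL* family, *MERTK*, averaged 0.0634 and 0.254 CPM and was not tested. *GAS6*, the ligand of *AXL*, rose from 315 ± 14.8 to 383 ± 30.8 CPM, that is, 0.28 on the log2 scale (edgeR adjusted p = 0.0098), and *PROS1*, a related ligand that binds *TYRO3* and *MERTK* proteins, did not pass at -0.01.

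The genes whose pattern over the 6 libraries was most like that of a target were found by the root mean square distance of centred log2 CPM, among 10313 genes with at least 5 CPM on average. For *CTGF* they were *SPOCD1*, *ANKRD13B* and *THBD*, at distances of 0.0722, 0.0873 and 0.0974, where the libraries of *CTGF* itself lay 0.402 from their own mean. For *ANKRD1* they were *MOCOS*, *TMEM178B* and *F3*, at 0.0664, 0.0737 and 0.0914, beside its own 0.563. For *CYR61* they were *PIAS4*, *CPT1A* and *IRF2BP2*, at 0.0263, 0.0347 and 0.0349, beside its own 0.122. With 6 libraries in 2 groups, genes with a group difference of the same size come out as alike by this measure. The 3 genes nearest to *CTGF* and to *ANKRD1* were all called higher in edgeR, with adjusted p-values of at most 0.0043, and those nearest to *CYR61* did not pass, at 0.073 or above.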

How the data were processed

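RNA of 3 sgCtrl and 3 sg*NF2*-1 libraries of H2452 cells was prepared with the NEBNext Ultra kit and sequenced as paired-end reads on a NovaSeq platform. Raw counts of reads on each gene were deposited by the authors. They also deposited FPKM, computed from these counts. The submitters' processing notes name HISAT2, StringTie 1.3.3b, featureCounts 1.5.0-p3 and hg38, with no role given. Whether counting used strand is not given in the sources used here. Genes overlapping a target on either strand averaged at most 6.17 counts, except *FEZ2*. *PTPN14* shares 1364 exon bases with such genes, and no other target shares more than 195. Of the 1364 bases, 1213 are shared with *KRT18P12*, a processed pseudogene on the opposite strand that averaged 0 counts. The effect of shared bases on the counts of a target was not tested. The deposited gene lengths and coordinates equal the exonic lengths and coordinates of all 10 targets in GENCODE. The depth implied by FPKM was 1.03 to 1.08 times the total count.

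Groups, and the replicate numbers, came from the sample titles. Low genes were removed by filterByExpr of edgeR 4.0.16 (R 4.3.3; counts of at least 10, totals of at least 15), and the others were normalized by TMM and fitted with the quasi-likelihood model, with Benjamini-Hochberg adjustment over 14179 genes. Standard errors and 95% intervals are from this fit. FPKM values were tested with limma 3.58.1 on log2(FPKM + 1) for the 13038 genes that averaged 0.5 FPKM or more. Single values were compared by two-sided exact permutation tests. The authors used DESeq2, in another version. Alternatives were DESeq2 1.42.0, edgeR scaled by library totals or by DESeq2's size factors, a replicate block, other filters (none, or 10 counts in each library), protein-coding genes only, omission of each library, and for FPKM a pseudocount of 0.1. For the study's thresholds p was taken as unadjusted. Procedures were tested on simulated counts.

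The named genes are the 10 targets, the other targets, effectors, relatives, ligands and markers listed, *NF2*, and the 3 genes most like *CTGF*, *CYR61* and *ANKRD1*. *FEZ2* and *KRT18P12* were named after their values were seen. The targets and lists were chosen with earlier results of these data known. An item of these lists is not reported here and was left out of their counts. Promoters are RefSeq's, matched by symbol and position. Protein sequences were not analysed here.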

Additional observations from a re-analysis of the deposited data

How the results depend on the processing

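Over 13 alternatives to the edgeR fit, 7 or 8 of the 10 targets were higher, 5 were so by the study's thresholds in each, and the 7 that rose passed under each. The number of lower targets changed from 0 to 1 with DESeq2, with library totals only and with the replicate block, and that gene was *MYOF* each time, at log2 fold changes of -0.20, -0.22 and -0.20 and adjusted p-values of 0.045, 0.044 and 0.026. Over all tested genes 2016 to 2698 were higher and 1880 to 2529 lower. *CRIM1* changed sign, without passing, with no filter (0.0049), without sgCtrl replicate 2 (0.03) and without sg*NF2*-1 replicate 3 (0.07), and on the log2(FPKM + 1) scale without the same libraries (0.01 and 0.05). On omission of each library it ranged from -0.0621 to 0.0663, and on the log2(FPKM + 1) scale from -0.0811 to 0.0507. Among these alternatives *CYR61* passed only without sg*NF2*-1 replicate 3. On the log2(FPKM + 1) scale 5 or 6 targets were higher in each of 9 alternatives. The cause of these changes was not tested. With library totals only, the median log2 fold change of all tested genes was -0.03.

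Same-numbered libraries of the 2 groups correlated by -0.03, 0.06 and 0.05 in their deviations from the group means, so the numbers were not taken to pair libraries, and the block fit gave 7 higher targets. Leaving out 1 library gave log2 fold changes of 0.59 to 0.82 for *CTGF*, 0.10 to 0.24 for *CYR61*, 1.06 to 1.21 for *ANKRD1* and -0.24 to -0.13 for *MYOF*. With 3 libraries a group and pooled cells from 1 line and 1 *NF2* sgRNA, effects of the guide, the pool and *NF2* loss cannot be told apart. At these depths each target had at least 404 counts in every library.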
